A study of Mus musculus with 85 samples.

Results

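Collagen gene expression was examined by RNA-seq in liver cells and cultured macrophages of the 3 inbred mouse strains A/J, BALB/cJ plus C57BL/6J. The collagen genes were taken by name, as every gene of the expression table whose symbol has the form of a collagen alpha chain (Col, a number, a, a number), which gave 44 of 23608 genes. Of these, 21 had a mean above 8 TPM (a gene's share of all transcripts, corrected for transcript length) in at least 1 of the 21 groups of libraries, 8 peaked between 1 and 8 TPM, and 15 stayed under 1 TPM in every group. The 15 included the cartilage collagens Col2a1, Col9a1 and Col10a1.

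Collagens are secreted matrix proteins built from alpha chains wound into a helix, and each collagen type is made of 1 or more kinds of chain. Fibrillar collagens I, III and V form the fibrils that accumulate in liver fibrosis, collagen IV forms the sheet of basement membranes, collagen VI forms beaded filaments next to cells, and the FACIT collagens, such as collagen XIV, bind to the surface of fibrils. In the liver, hepatic stellate cells, the vitamin A-storing pericytes of the sinusoid, are known as a main source of fibrillar collagen, whereas liver sinusoidal endothelial cells (LSECs) line the vessel that stellate cells wrap, and Kupffer cells are the resident macrophages inside it.

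The values came from 59 libraries of male adult mice: stellate cells sorted by their autofluorescence (4 A/J, 4 BALB/cJ and 3 C57BL/6J), LSECs sorted as CD45-CD146+ (4 in each strain), Kupffer cells of mice fed AMLN diet, a diet high in fat, fructose and cholesterol that induces steatohepatitis, for 30 weeks (4, 3 and 4), Kupffer cells of control mice (2 in each strain), purified hepatocytes (2, 2 and 3), and bone marrow-derived macrophages (BMDMs) given the lipopolysaccharide Kdo2-lipid A (KLA) at 100 ng/ml or PBS for 2 h (2 of each in each strain). Stellate cells, LSECs, hepatocytes and control Kupffer cells carry the label control only, no group carries a transgene or mutation beyond its strain, and the study describes the C57BL/6 mice of its diet experiment as a colony kept in its own laboratory. Library totals were 8.1 to 12.7 M counts in stellate cells, 6.4 to 14.0 M in LSECs, 9.1 to 24.2 M in Kupffer cells, 9.2 to 21.4 M in hepatocytes and 22.0 to 42.8 M in BMDMs. Nothing in the labels ties libraries to separate animals, and p-values therefore describe library-to-library spread, part of which may be technical.

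Markers of the labelled cell types were present where the labels put them, and markers of neighbouring cells were found beside them. Summed over 21 markers of stellate cells, such as Lrat, Reln and Des, the stellate libraries held 16787 to 35670 TPM and the LSEC libraries 402 to 1685 TPM. The stellate libraries also held 5088 to 10498 TPM of 15 LSEC markers, which summed to 18856 to 24453 TPM in LSECs, and between 978 and 14592 TPM of 14 Kupffer markers, highest in A/J replicate 3, which summed to 30150 to 36201 TPM in control Kupffer cells. In bulk samples, fewer cells of a type and less RNA per cell cannot be told apart.

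The collagen IV genes Col4a1 and Col4a2 are shown first because they lie head to head and their levels moved together between the strains. On GRCm38.p6 (the same assembly as mm10) Col4a1 occupies chr8:11198423-11312889 on the minus strand and Col4a2 chr8:11312805-11449287 on the plus strand, so that the genes overlap by 85 bases and their starts lie 84 bases apart. Their RefSeq promoter windows, from 250 bases before to 50 bases after the start, share the 78 bases of chr8:11312777-11312854, shown in capitals. The capitals hold the GC box, the motif GGGCGG, which reads CCGCCC on the other strand, and each window also holds a CCAAT box, which in Col4a2 ends at the edge of the capitals. Each sequence reads 5′ to 3′ on the strand of its gene.
Col4a1, chr8:11312777-11313076, minus strand: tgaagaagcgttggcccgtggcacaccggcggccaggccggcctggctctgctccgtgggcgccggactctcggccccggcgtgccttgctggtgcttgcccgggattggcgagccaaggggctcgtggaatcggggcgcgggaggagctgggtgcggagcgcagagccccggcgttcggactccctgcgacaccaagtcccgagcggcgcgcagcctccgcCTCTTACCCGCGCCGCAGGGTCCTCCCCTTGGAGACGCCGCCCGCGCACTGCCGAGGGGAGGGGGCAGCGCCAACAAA
Col4a2, chr8:11312555-11312854, plus strand: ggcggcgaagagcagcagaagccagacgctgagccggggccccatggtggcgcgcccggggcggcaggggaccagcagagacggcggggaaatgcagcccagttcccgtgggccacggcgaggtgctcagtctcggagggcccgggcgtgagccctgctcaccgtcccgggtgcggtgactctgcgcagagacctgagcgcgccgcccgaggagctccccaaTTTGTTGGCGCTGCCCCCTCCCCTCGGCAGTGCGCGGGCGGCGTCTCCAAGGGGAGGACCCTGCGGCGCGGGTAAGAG
Across 32851 RefSeq promoter windows of this length, GGGCGG was present on either strand in 35.7%, CCAAT in 37.4% and TATAAA in 13.6%. Of 38 windows that matched 35 collagen genes, 23 held GGGCGG, 13 held CCAAT and 5 held TATAAA. A match describes the letters only.

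A further promoter is shown for Col6a5, an alpha chain of collagen VI, since its transcript was detected in stellate cells of A/J and BALB/cJ mice and was near 0 in those of C57BL/6J mice. Col6a5 occupies chr9:105856070-105962463 on the minus strand, 27854 bases from Col6a4 and 27823 bases from Col6a6, which lie on the same strand and stayed under 1 TPM in every group. The RefSeq window below is that of a start inside this span, in the reference sequence, which is that of C57BL/6J, with the GC box GGGCGG in capitals.
Col6a5, chr9:105960594-105960893, minus strand: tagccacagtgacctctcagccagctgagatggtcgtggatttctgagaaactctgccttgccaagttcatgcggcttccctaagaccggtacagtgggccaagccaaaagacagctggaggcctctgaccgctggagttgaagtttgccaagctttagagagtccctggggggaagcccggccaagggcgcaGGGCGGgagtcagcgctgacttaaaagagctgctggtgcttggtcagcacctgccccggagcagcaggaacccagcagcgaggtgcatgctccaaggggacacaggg
This window held GGGCGG but neither CCAAT nor TATAAA. Further neighbours among the collagens were Col3a1 and Col5a2, on opposite strands with 24624 bases between them on chromosome 1, and Col6a2 and Col6a1, on the minus strand of chromosome 10 with 85161 bases between them.

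Stellate cells held the highest collagen level of any cell type, and each cell type had a collagen profile of its own. Summed over the 44 genes, collagen transcripts reached 1602 to 4423 TPM in stellate libraries, 693 to 1046 TPM in LSECs, 254 to 292 TPM in hepatocytes, 27.3 to 42.4 TPM in control Kupffer cells and 15.1 to 25.8 TPM in PBS-treated BMDMs. In stellate cells the collagen transcripts were spread over FACIT collagens (26.4 to 38.8% of collagen TPM), collagen IV (25.6 to 31.6%), fibrillar collagens (21.7 to 27.2%) and collagen VI (8.1 to 13.7%). LSECs expressed mainly collagen IV (45.3 to 63.1%) and transmembrane collagen (25.6 to 48.5%), and in hepatocytes a single multiplexin gene, Col18a1, whose protein is cleaved to release endostatin, made up most of the 86.6 to 92.0% that this class took.

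**Figure D1:**
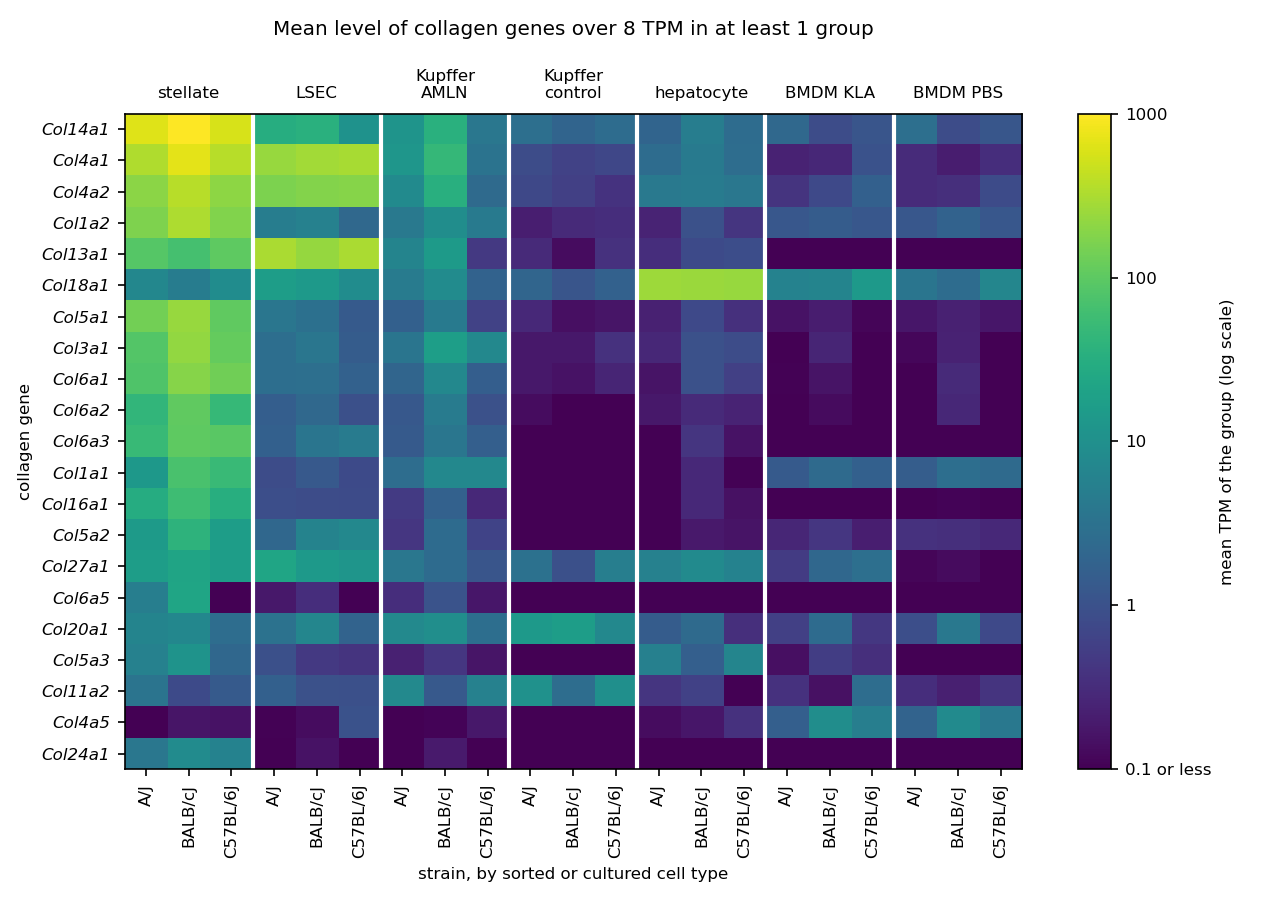
Mean TPM (colour, log scale) of the 21 collagen genes over 8 TPM in at least 1 group, in rows, against strain within cell type and treatment, in columns, with genes ordered by their highest group mean. Most collagen genes reach their highest level in stellate cells, Col13a1 in LSECs, Col18a1 in hepatocytes and Col4a5 in BMDMs.

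Against LSECs, 14 of the 18 collagen genes tested were called in stellate cells, 13 higher and 1 lower, where 20.7% of all 9945 genes tested were called. A gene was called when edgeR's quasi-likelihood test gave a Benjamini-Hochberg adjusted p under 0.05 over all genes tested and the log2 fold change exceeded 1 in size, and a gene was tested when a group of the comparison averaged over 8 TPM. Of the 13 that were higher, 12 reached 8 TPM only in stellate groups, so that they had to differ to be tested. Without the limit 35 collagens were tested, 18 were called higher and 3 lower, where 25.7% of all genes were called, and their median log2 fold change was 1.12, against 0.02 over all genes.

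Fibrillar, collagen VI and FACIT chains were all among the larger differences. The fibrillar Col24a1 averaged 6.12 TPM in stellate cells and 0.1 TPM in LSECs, a log2 difference of 6.19 (SE 0.30). Col5a1, which nucleates collagen fibrils, averaged 167 ± 64 TPM in stellate cells and 2.66 ± 2.0 TPM in LSECs (SD, n = 11 and 12), a log2 difference of 6.11 (SE 0.30). Col1a2, a chain of collagen I, averaged 226 ± 87 TPM in stellate cells and 4.33 TPM in LSECs, a log2 difference of 5.88. The difference was 5.89 for Col3a1, the chain of collagen III, and 5.46 for Col1a1, the other chain of collagen I. All of these exceeded the spread between libraries. Other fibrillar chains differed less, by 3.39 for Col5a3 and 2.36 for Col5a2, and Col27a1 was not called (0.33). Col14a1, the FACIT collagen with the highest level of the family, averaged 773 ± 265 TPM in stellate cells and 25.7 ± 19 TPM in LSECs, a log2 difference of 5.14. The collagen VI chains Col6a1, Col6a2 and Col6a3 were higher in stellate cells by 5.88, 5.53 and 4.81 on the log2 scale, and the FACIT collagen Col16a1 was higher by 5.64.

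Collagen IV was expressed in both stellate cells and LSECs. Col4a1 averaged 469 ± 181 TPM in stellate cells and 272 ± 35 TPM in LSECs, and the log2 difference of 0.82 passed the adjusted p (3e-07) but not the fold limit. Col13a1, a collagen anchored in the plasma membrane, was the 1 collagen called lower in stellate cells, at 84.7 ± 28 TPM against 287 ± 82 TPM in LSECs, a log2 difference of -1.62 (SE 0.19), with no overlap between the libraries. The stellate libraries hold LSEC markers as given above, and their part in the Col13a1 level of stellate cells was not tested.

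Of 20 collagen genes tested between stellate and Kupffer cells, all 20 were called, 18 higher and 2 lower in stellate cells, where 36.9% of all genes were called. The 18 reached 8 TPM only in stellate groups and the other 2 only in Kupffer groups, and the 18 include Col6a5, whose call was lost without 1 C57BL/6J library as given below. Without the limit 32 of 35 collagens were called, 27 higher and 5 lower, where 38.7% of all genes were called. Col11a2 and Col20a1 were the 2 that were lower. Col11a2, a fibrillar chain known from cartilage, averaged 1.90 TPM in stellate cells and 7.78 TPM in Kupffer cells (log2 difference -2.33), and Col20a1, a FACIT collagen, averaged 5.67 TPM in stellate cells and 12.84 TPM in Kupffer cells (log2 difference -1.49). Against hepatocytes, 16 of 18 collagens were called, 15 higher and 1 lower in stellate cells, where 62.2% of all genes were called, and the 15 reached 8 TPM only in stellate groups. Without the limit 30 of 35 were called, 26 higher and 4 lower, where 64% of all genes were. The exception in direction was Col18a1, with 6.78 ± 3.0 TPM in stellate cells and 249 ± 12 TPM in hepatocytes, a log2 difference of -6.49.

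LSECs and Kupffer cells shared 8 collagen genes that could be tested, and all 8 were called, 6 higher and 2 lower in LSECs, where 38.4% of all genes were called, each of them over 8 TPM only in the cell type where it was higher. Without the limit 30 of 35 were called, 25 higher and 5 lower, where 42.6% of all genes were. Col13a1 averaged 287 TPM in LSECs and 0.27 TPM in Kupffer cells, and its log2 difference of 9.82 was followed by those of Col4a1 (8.20) and Col4a2 (8.01). Col20a1 and Col11a2 were again higher in Kupffer cells, by -2.13 and -2.84 on the log2 scale of LSECs minus Kupffer cells.

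Among the genes tested, those that process and bind collagen were mostly called higher in stellate cells, whereas most genes of its synthesis and folding were not called. As for the collagens, a gene over 8 TPM in stellate groups alone had to differ to be tested. These lists were not counted without the limit. Beside the counts below, 20.7% of all genes were called between stellate cells and LSECs, and 13.1% were called higher in stellate cells. Of 11 tested genes for processing and crosslinking, 9 were called higher in stellate cells than in LSECs, with log2 differences of 5.80 for the procollagen N-proteinase Adamts2 and 5.61 for the lysyl oxidase Loxl1. Of 19 genes of synthesis and folding, 6 were called higher, led by the prolyl isomerase Fkbp10 (4.50) and the lysyl hydroxylase Plod2 (3.57), and the collagen galactosyltransferase Colgalt2 was called lower (-1.22). Of 6 collagen receptors, 4 were called higher, among them Mrc2 (6.03) and Ddr2 (3.89), and Mmp2, a gelatinase, was higher by 6.22. Among 19 other matrix genes, 12 were called higher and 2 lower, and the proteoglycan Dcn, at 8159 TPM in stellate cells and 159 TPM in LSECs, stood above the highest collagen, Col14a1, on the TPM scale.

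Stellate cells of the 3 strains differed in their collagen level, and BALB/cJ cells stood highest. Of 17 collagens tested between A/J and BALB/cJ stellate cells, 8 were called and all 8 were lower in A/J, where 8.32% of all genes were called in either direction and 2.1% lower. Of the 8, Col6a5 and Col24a1 reached 8 TPM only in BALB/cJ. Without the limit 9 of 29 collagens were called, 8 lower and 1 higher, where 10.5% of all genes were. The median log2 difference was -0.99 over the 17 and -0.69 over the 29, against 0.01 and 0.02 over all genes, and in 15 of the 17 the TPM of the strains did not overlap, which held for 34.2% of all genes tested. Of 18 collagens tested between BALB/cJ and C57BL/6J, 6 were called and all 6 were higher in BALB/cJ, where 9.08% were called in either direction, with Col5a3 and Col6a5 over 8 TPM only in BALB/cJ, and the median was 0.88. Without the limit 10 of 29 were called, 9 higher and 1 lower, where 12.1% of all genes were, and the median was 0.56. Between A/J and C57BL/6J, 1 of 15 collagens was called, where 7.3% of all genes were, and the median was -0.12. Without the limit 8 of 29 were called, 6 higher and 2 lower in A/J, where 9.81% of all genes were, and the median was -0.06.

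**Figure D2:**
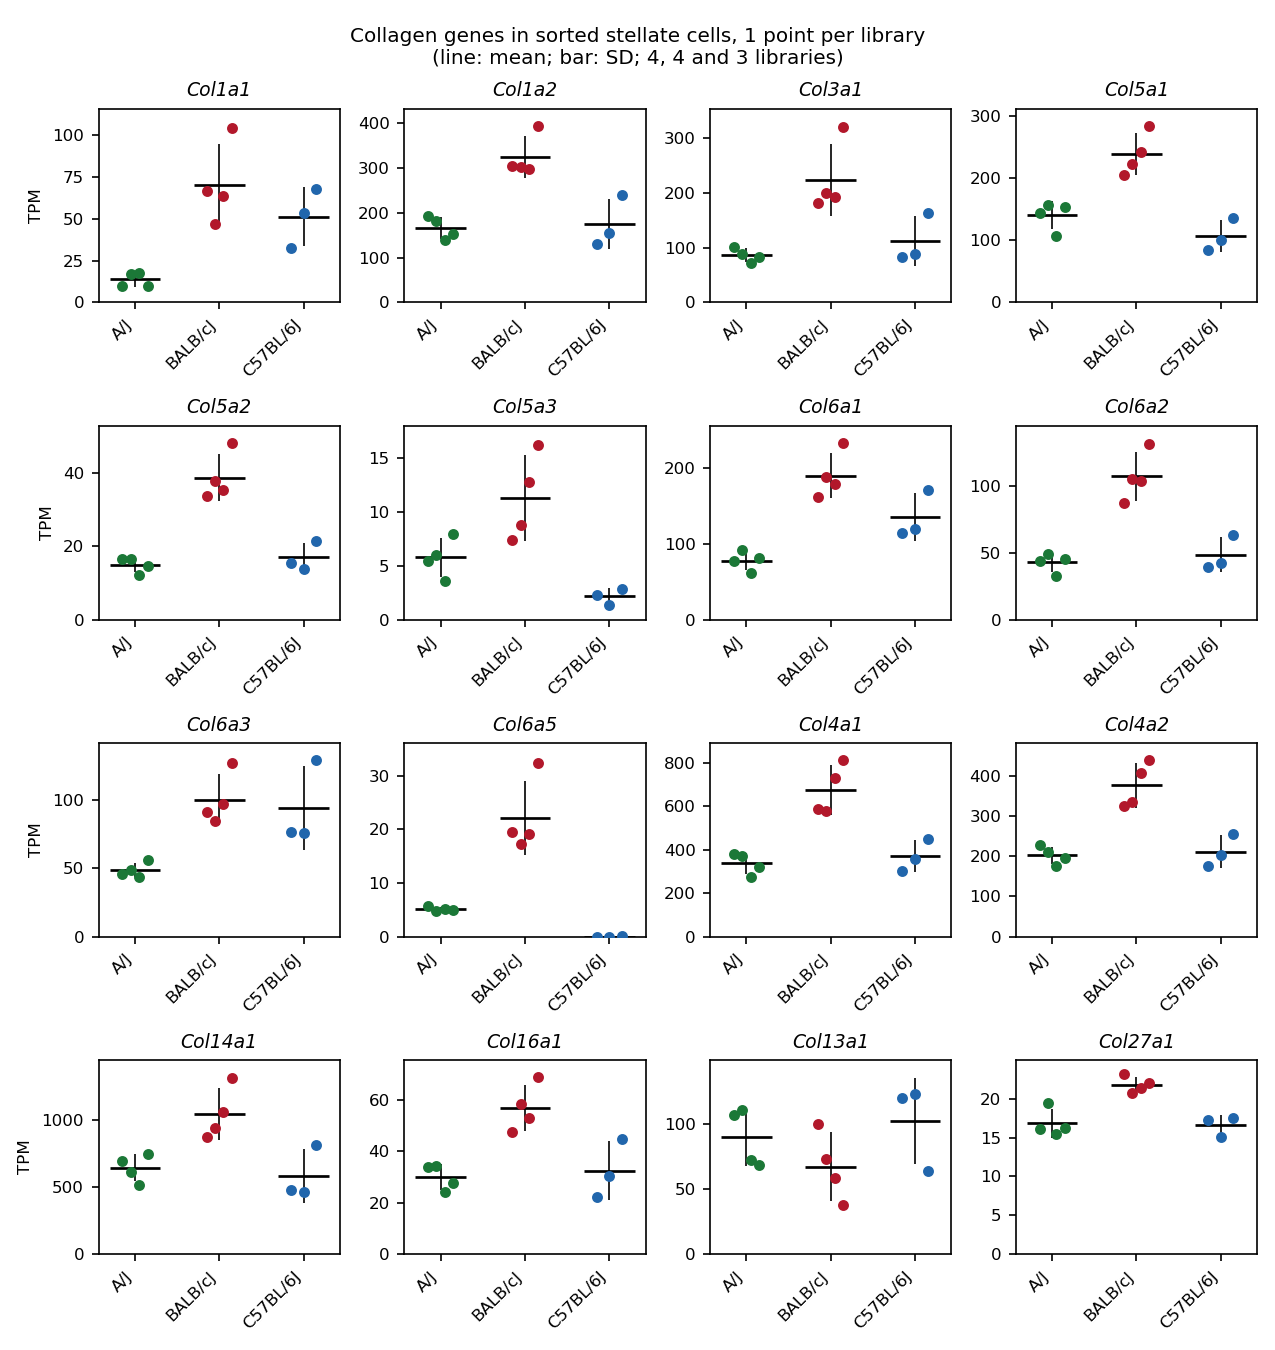
TPM of 16 collagen genes (1 panel each, y axis from 0) in the sorted stellate libraries of A/J (4), BALB/cJ (4) and C57BL/6J (3) mice, with the mean as a line and the SD as a bar. The BALB/cJ libraries lie above those of A/J in most panels, Col1a1 is lowest in A/J, and Col6a5 is at 0 to 0.065 TPM in C57BL/6J.

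Of the fibrillar chains, Col1a1 was the collagen with the lowest A/J level relative to both other strains. It had 10.0, 17.1, 17.5 and 10.0 TPM in A/J stellate libraries, 66.3, 46.6, 63.5 and 104 TPM in BALB/cJ, and 32.5, 53.2 and 67.7 TPM in C57BL/6J. All A/J libraries lay below all others, while BALB/cJ and C57BL/6J overlapped. The log2 difference was -2.33 (SE 0.34) for A/J minus BALB/cJ and -1.83 (SE 0.35) for A/J minus C57BL/6J. With the TPM limit, Col1a1 was the 1 collagen called between A/J and C57BL/6J.

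The partner chain Col1a2 did not share this pattern in full. It had 193, 181, 140 and 153 TPM in A/J, 304, 303, 298 and 394 TPM in BALB/cJ, and 131, 156 and 239 TPM in C57BL/6J libraries, so that A/J and C57BL/6J overlapped and BALB/cJ lay above both. The ratio of Col1a1 to Col1a2 TPM was 0.052, 0.095, 0.125 and 0.066 in A/J libraries, 0.218, 0.154, 0.213 and 0.265 in BALB/cJ libraries, and 0.248, 0.342 and 0.283 in those of C57BL/6J. The A/J ratios did not overlap with those of either strain, with log2 differences of -1.38 from BALB/cJ and -1.85 from C57BL/6J. The 2-sided exact permutation p was 0.0286 for each, the smallest that 4 against 4 or 4 against 3 libraries allow here, and it was 0.0551 after adjustment over the 27 ratio comparisons made, which misses 0.05.

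Col3a1 and the collagen V chains were highest in BALB/cJ. Col3a1 had 102, 88.6, 72.4 and 83.2 TPM in A/J, 182, 200, 193 and 321 TPM in BALB/cJ, and 83.2, 89.2 and 164 TPM in C57BL/6J libraries. BALB/cJ exceeded A/J (log2 difference of A/J minus BALB/cJ -1.36) and C57BL/6J (1.03, SE 0.28), and its libraries overlapped with neither, although the C57BL/6J call was lost without any 1 of BALB/cJ replicate 4 (0.79), C57BL/6J replicate 1 (0.85) or C57BL/6J replicate 2 (0.88). Col5a2, whose gene neighbours Col3a1, had 16.5, 16.5, 12.3 and 14.5 TPM in A/J, 33.7, 37.9, 35.5 and 48.1 TPM in BALB/cJ, and 15.5, 13.9 and 21.5 TPM in C57BL/6J libraries. This was the same order as for Col3a1, with log2 differences of -1.36 (A/J minus BALB/cJ) and 1.23 (BALB/cJ minus C57BL/6J).

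Of the remaining chains of collagen V, Col5a3 separated the strains in another way, whereas Col5a1 again had BALB/cJ highest without overlap. Col5a3 had 5.46, 6.04, 3.62 and 7.93 TPM in A/J, 7.41, 8.74, 12.8 and 16.2 TPM in BALB/cJ, and 2.27, 1.35 and 2.86 TPM in C57BL/6J libraries. C57BL/6J was the lowest strain without overlap, and BALB/cJ exceeded it by a log2 difference of 2.43 (SE 0.37). Col5a1 had 145, 156, 107 and 154 TPM in A/J, 206, 224, 242 and 285 TPM in BALB/cJ, and 85.2, 101 and 135 TPM in C57BL/6J libraries, and was called between BALB/cJ and C57BL/6J (1.20). Col24a1, a fibrillar collagen of low level, had 4.26, 4.28, 2.96 and 4.16 TPM in A/J, 7.53, 9.49, 6.46 and 10.4 TPM in BALB/cJ, and 5.30, 5.16 and 7.29 TPM in C57BL/6J libraries, with A/J lowest without overlap (A/J minus BALB/cJ -1.10, SE 0.19).

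Col6a5 gave the largest strain difference of the family. It had 5.70, 4.83, 5.14 and 4.92 TPM in A/J, 19.5, 17.3, 19.1 and 32.4 TPM in BALB/cJ, and 0, 0 and 0.065 TPM in C57BL/6J libraries. A/J was called lower than BALB/cJ (log2 difference -2.08, SE 0.24), and no strain overlapped with another. These levels rest on 320 to 402 reads per library in A/J, 917 to 2403 reads in BALB/cJ and 4 reads over the 3 C57BL/6J libraries together, all in replicate 3. Per library size, the summed counts of BALB/cJ were 1025.2 times those of C57BL/6J (95% interval 400.2 to 3763.9) and those of A/J 244.0 times (95.1 to 896.8), with intervals that cover counting error only. The call of Col6a5 between stellate cells as a whole and each other cell type was lost without C57BL/6J replicate 3, with adjusted p of 0.993 or more in edgeR's test. The C57BL/6J stellate group is then at 0, and the comparison averages log2 levels over strains, so that this fit cannot decide the difference. Every A/J and BALB/cJ stellate library lay above the highest LSEC (0.681 TPM), control Kupffer (0.058 TPM) and hepatocyte (0.06 TPM) library. For C57BL/6J no difference between cell types is given.

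The other collagen VI chains were expressed in all 3 strains. Col6a1 had 78.0, 91.6, 61.3 and 80.9 TPM in A/J, 162, 188, 179 and 233 TPM in BALB/cJ, and 114, 120 and 172 TPM in C57BL/6J libraries, and A/J lay below both without overlap (log2 difference from BALB/cJ -1.27, called; from C57BL/6J -0.74, adjusted p 0.0085 in edgeR's test, short of the fold limit). Col6a2 had 43.7, 49.0, 32.8 and 45.3 TPM in A/J, 87.3, 105, 104 and 131 TPM in BALB/cJ, and 39.5, 42.3 and 63.2 TPM in C57BL/6J libraries. Here A/J and C57BL/6J overlapped, and the ratio of Col6a1 to Col6a2 was 1.827 ± 0.048 in A/J libraries, 1.784 ± 0.052 in BALB/cJ libraries and 2.818 ± 0.091 in those of C57BL/6J (SD, n = 4, 4 and 3). C57BL/6J did not overlap with either strain in this ratio (log2 differences of A/J and BALB/cJ from it -0.62 and -0.66, 2-sided exact permutation p = 0.0286 each, adjusted p 0.0551 over the 27 ratio comparisons). Col6a3, the third main chain, had a mean log2 difference of -1.02 between A/J and BALB/cJ, which fell under the fold limit without A/J replicate 1 or 3 or BALB/cJ replicate 4.

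The collagen IV chains moved together between strains. Col4a1 had 381, 370, 273 and 322 TPM in A/J, 585, 577, 728 and 812 TPM in BALB/cJ, and 304, 357 and 448 TPM in C57BL/6J libraries, and Col4a2 had 227, 211, 175 and 195 TPM in A/J, 324, 335, 406 and 440 TPM in BALB/cJ, and 176, 203 and 256 TPM in C57BL/6J libraries. BALB/cJ lay above both strains without overlap in each gene. The ratio of Col4a1 to Col4a2 was 1.662 ± 0.08 in A/J libraries, 1.792 ± 0.05 in BALB/cJ libraries and 1.747 ± 0.019 in those of C57BL/6J, and its log2 differences between strains were at most 0.11 in size. Reads in the 85 bases that both genes share cannot be assigned to one of them without strand, and whether counting used strand is not stated.

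Col14a1 had 697, 614, 516 and 748 TPM in A/J, 876, 939, 1058 and 1317 TPM in BALB/cJ, and 474, 459 and 810 TPM in C57BL/6J libraries, and its log2 difference between A/J and BALB/cJ was -0.69, short of the fold limit. Col13a1 did not follow the rest of the family. It had 106, 111, 72.1 and 68.6 TPM in A/J, 99.9, 72.6, 58.4 and 37.2 TPM in BALB/cJ, and 120, 123 and 63.7 TPM in C57BL/6J libraries, which overlapped in all pairs, and the log2 difference of 0.45 between A/J and BALB/cJ gave an adjusted p of 0.26 in edgeR's test.

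**Figure D3:**
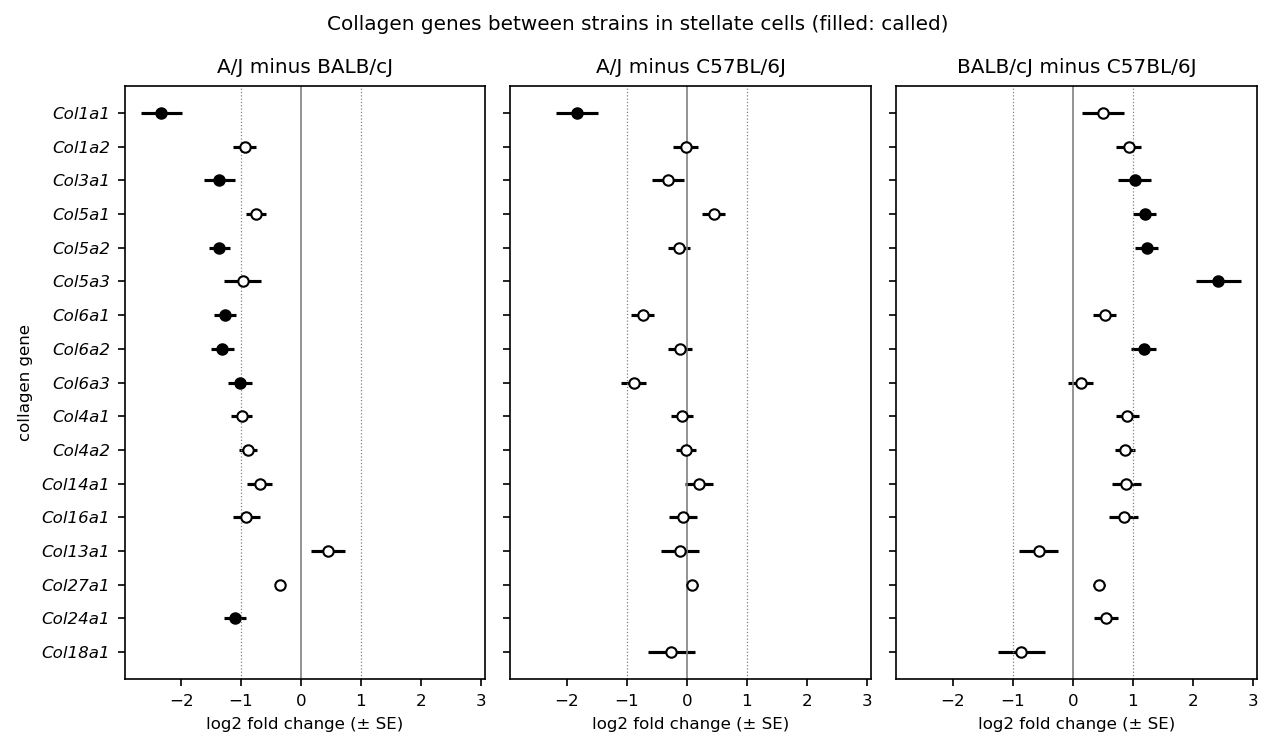
Log2 fold changes (x axis, ± SE) of the collagen genes tested between strains in stellate cells, 1 panel per pair of strains, with filled points for called genes, dotted lines at -1 and 1, and Col6a5 left out for scale. Nearly all points of A/J minus BALB/cJ lie left of 0, those of BALB/cJ minus C57BL/6J mostly right of 0, and in A/J minus C57BL/6J only Col1a1 is filled.

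Markers of stellate cells and of Kupffer cells moved with these differences. Stellate markers summed to 21103, 23159, 16787 and 23884 TPM in A/J, 26413, 31086, 30740 and 35670 TPM in BALB/cJ, and 18527, 20080 and 27815 TPM in C57BL/6J stellate libraries. Kupffer markers summed to 5265, 5766, 14592 and 7678 TPM in A/J, 978, 1629, 2144 and 1397 TPM in BALB/cJ, and 3876, 2984 and 3684 TPM in C57BL/6J. Of the 14, 13 were called with A/J above BALB/cJ, where 8.32% of all genes were called in either direction. No stellate or Kupffer marker was at 0 in all libraries of any stellate group. LSEC markers summed to 5734 to 10498 TPM in A/J, 5088 to 7809 TPM in BALB/cJ and 6884 to 10193 TPM in C57BL/6J stellate libraries. Hepatocyte markers summed to 903 to 2853 TPM in A/J, 522 to 1600 TPM in BALB/cJ and 786 to 2076 TPM in C57BL/6J.

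With counts scaled to the stellate markers instead of to all genes, the median of all genes shifted to 0.60 for A/J minus BALB/cJ and to -0.56 for BALB/cJ minus C57BL/6J on the log2 scale. The collagen median was then -0.39 and 0.35, and 7 calls in place of 15 were made between strains. Those between A/J and BALB/cJ were Col1a1 (-1.68) and Col6a5 (-1.45), and Col1a1 (-1.72) was called between A/J and C57BL/6J. Between BALB/cJ and C57BL/6J, Col6a5 (9.36) and Col5a3 (1.86) were higher and Col13a1 (-1.15) and Col18a1 (-1.48) lower, so that the split turned to 2 higher and 2 lower. Col13a1 was higher in LSECs, and Col18a1 in hepatocytes, than in stellate cells. Markers of both cell types were present in the stellate libraries as given above, and their part in these 2 lower calls was not tested. As a percentage of the summed stellate markers, collagen transcripts were 10.1, 8.87, 9.54 and 8.44% in A/J libraries, 11.9, 10.4, 11.7 and 12.4% in BALB/cJ libraries and 9.3, 9.29 and 9.56% in those of C57BL/6J. The part that purity played in the remaining differences was not tested.

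Some enzymes of collagen production differed between strains in the same stellate cells, where 8.32% (A/J and BALB/cJ) and 9.08% (BALB/cJ and C57BL/6J) of all genes were called. Of 18 tested genes of synthesis and folding, 3 had A/J below BALB/cJ: Plod2 (-1.25), the collagen chaperone Serpinh1 (-1.10) and Fkbp10 (-1.06). Of these 18, 7 had BALB/cJ above C57BL/6J, led by the prolyl hydroxylase family member P3h3 (1.56) and Tmem38b (1.26). Loxl1 was lower in A/J cells than in those of both BALB/cJ (-1.56) and C57BL/6J (-2.15), and for Mmp2 A/J was below BALB/cJ (-1.26). Pcolce2, an enhancer of procollagen cleavage that was lower in stellate than in Kupffer cells (-3.51), was higher in A/J (2.57 for A/J minus BALB/cJ). Lair1, a collagen receptor of immune cells, was higher in A/J too (2.33 for A/J minus BALB/cJ and -2.0 for BALB/cJ minus C57BL/6J). Kupffer markers were also higher in the A/J than in the BALB/cJ stellate libraries, as given above. Their part in the levels of Pcolce2 and Lair1 was not tested. Of 18 tested matrix genes outside the collagens, Fn1 and Eln, which encode fibronectin and elastin, were lower in A/J cells than in cells of BALB/cJ (-1.16 and -1.34) and C57BL/6J (-1.17 and -1.52). With counts scaled to the stellate markers, the A/J minus BALB/cJ differences of Plod2 (-0.68), Serpinh1 (-0.48), Fkbp10 (-0.47), Loxl1 (-0.95), Mmp2 (-0.66), Fn1 (-0.59) and Eln (-0.77) were no longer called, and of the 7 genes with BALB/cJ above C57BL/6J only P3h3 (1.05) still was. The calls of Loxl1, Fn1 and Eln between A/J and C57BL/6J held under this scaling (-2.05, -1.14 and -1.47). Those of Pcolce2 and Lair1 between A/J and BALB/cJ also held, with larger differences (3.28 and 3.01).

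In stellate cells, some collagens below the 8 TPM limit also separated the strains when tested without it, and they are named here after their values were seen. Without the limit, 9.81% of all genes were called between A/J and C57BL/6J and 12.1% between BALB/cJ and C57BL/6J. Col25a1, a membrane-bound collagen, had 5.16, 5.44, 3.17 and 5.51 TPM in A/J, 4.59, 6.22, 3.51 and 5.82 TPM in BALB/cJ, and 0.931, 0.948 and 1.86 TPM in C57BL/6J libraries, with C57BL/6J lowest without overlap (A/J minus C57BL/6J 1.99, BALB/cJ minus C57BL/6J 2.05). Col4a3, a collagen IV chain known from kidney basement membrane, had 1.15, 1.66 and 1.31 TPM in C57BL/6J and at most 0.446 TPM in the other strains, with log2 differences of -2.45 for A/J and -2.02 for BALB/cJ minus C57BL/6J. Over all strains Col4a3 averaged 1.83 TPM in LSECs and 0.58 TPM in stellate libraries. The stellate libraries hold LSEC markers as given above, and their part in the Col4a3 levels was not tested.

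LSECs of the 3 strains expressed their main collagens at similar levels. None of the 6 collagens tested was called between any pair of strains, where 2.67% (A/J and BALB/cJ), 4.14% (A/J and C57BL/6J) and 3.86% (BALB/cJ and C57BL/6J) of all genes were called in edgeR's test. At an unadjusted p under 0.05, 1, 3 and 2 of these genes passed in the 3 pairs, and DESeq2 called 2 in all. Without the limit 28 collagens were tested. For A/J minus BALB/cJ 2 were called, 0 higher and 2 lower, where 501 of 13047 genes were. For A/J minus C57BL/6J 7 were called, 3 higher and 4 lower, where 6.23% of all genes were. For BALB/cJ minus C57BL/6J 4 were called, 3 higher and 1 lower, where 5.78% of all genes were. Col4a1 had 246, 228, 272 and 211 TPM in A/J, 246, 278, 322 and 288 TPM in BALB/cJ, and 263, 308, 318 and 292 TPM in C57BL/6J LSECs, which overlapped. Col13a1 had 239, 254, 501 and 262 TPM in A/J, 266, 258, 233 and 184 TPM in BALB/cJ, and 348, 352, 247 and 299 TPM in C57BL/6J LSECs, which overlapped as well.

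Col27a1 and Col5a2 were ordered in LSECs in a way that differed from stellate cells. Col27a1, a fibrillar collagen, had 19.4, 21.4, 26.4 and 22.0 TPM in A/J, 12.3, 15.7, 16.0 and 14.7 TPM in BALB/cJ, and 13.0, 11.0, 13.8 and 11.8 TPM in C57BL/6J LSECs, so that A/J was highest without overlap. The log2 differences of A/J from BALB/cJ (0.65, adjusted p 0.002) and from C57BL/6J (0.92, adjusted p 8.89e-05) passed edgeR's test but not the fold limit. In stellate cells Col27a1 had 16.1, 19.5, 15.4 and 16.2 TPM in A/J and 23.1, 20.8, 21.3 and 22.1 TPM in BALB/cJ, where A/J was the lower. The interaction of strain and cell type was called, at -1.03 on the log2 scale for the A/J minus BALB/cJ difference in stellate cells minus that in LSECs (adjusted p 0.000282 in edgeR's test).

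The interaction was also called for Col5a2, and 2 of 18 collagens were called where 5.04% of all genes were. Without the limit 3 of 30 collagens were called, where 661 of 14236 genes were. Col5a2 had 2.44, 2.46, 2.12 and 1.68 TPM in A/J, 4.70, 6.95, 4.00 and 8.75 TPM in BALB/cJ, and 6.56, 6.01, 9.50 and 7.54 TPM in C57BL/6J LSECs. A/J was lowest without overlap, whereas in stellate cells A/J and C57BL/6J overlapped, and the A/J minus C57BL/6J difference was -0.13 there. That strain difference was thus smaller in size in stellate cells, and its value in stellate cells minus that in LSECs was 1.57 (adjusted p 0.00426 in edgeR's test). The interaction of Col4a1 (0.97, BALB/cJ minus C57BL/6J, adjusted p 0.0078) passed edgeR's test but not the fold limit.

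**Figure D4:**
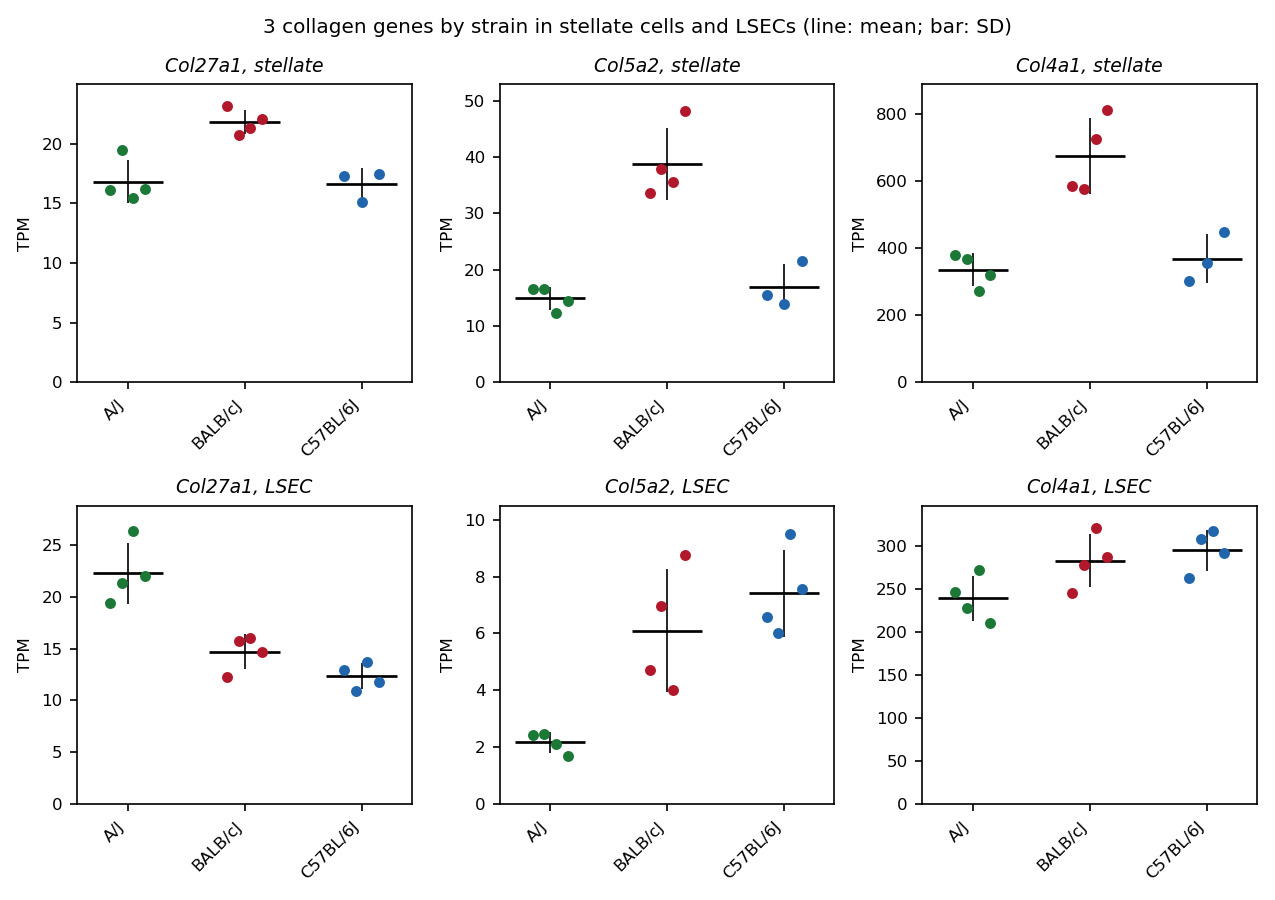
TPM (y axis from 0) of Col27a1, Col5a2 and Col4a1 by strain in stellate cells (upper panels) and LSECs (lower panels), 1 point per library, with the mean as a line and the SD as a bar. Col27a1 is highest in BALB/cJ stellate cells but in A/J LSECs, and Col5a2 is lowest in A/J LSECs.

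Part of the LSEC collagen signal moved with transcripts of other cells. Hepatocyte markers summed to 7405 and 8260 TPM in A/J LSEC replicates 1 and 2 and to 9987 TPM in BALB/cJ replicate 1, against 1030 to 2400 TPM in the other 9 LSEC libraries, and stellate markers were highest in the same libraries, at 1569, 1197 and 1685 TPM, against 402 to 904 TPM. Col18a1 had 25.7 and 28.2 TPM in those A/J libraries and 40.7 TPM in that BALB/cJ library, against 4.37 to 11.0 TPM in the others. Col14a1 had 55.1, 35.0 and 70.4 TPM there, against 4.16 to 26.9 TPM. Their part in these 2 genes was not tested.

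Among collagens under the limit in LSECs, named after their values were seen, Col17a1, a hemidesmosome collagen of epithelia, had 5.65, 6.07, 5.34 and 6.40 TPM in A/J, 3.12, 4.57, 6.46 and 4.88 TPM in BALB/cJ, and 1.14, 1.40, 1.82 and 1.56 TPM in C57BL/6J. C57BL/6J lay lowest without overlap (A/J minus C57BL/6J 2.04, BALB/cJ minus C57BL/6J 1.70, tested with no TPM limit, where 6.23% and 5.78% of all genes were called). Col4a3 ran the other way, with 0.661, 0.580, 0.671 and 0.983 TPM in A/J, 1.16, 1.21, 1.26 and 2.02 TPM in BALB/cJ, and 1.81, 2.68, 3.98 and 4.98 TPM in C57BL/6J LSECs, and log2 differences of -2.14 and -1.24 from C57BL/6J. For Col4a3, C57BL/6J was the highest strain in both LSEC and stellate libraries. The part of LSEC transcripts in its stellate levels was not tested, as given above.

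Kupffer cells of A/J and BALB/cJ mice fed AMLN diet held more collagen transcript in every library than the control Kupffer cells of their strain, and in C57BL/6J 3 of 4 libraries did. Collagen transcripts summed to 49.1, 132, 50.1 and 108 TPM in A/J, 137, 83.0 and 424 TPM in BALB/cJ, and 46.8, 40.5, 33.7 and 89.3 TPM in C57BL/6J AMLN libraries, against 27.3 to 42.4 TPM in the controls of all strains. Of 5 collagens tested in A/J, 2 were called higher on AMLN diet, where 2.66% of all genes were, and both reached 8 TPM only in the AMLN group. Without the limit 9 of 31 were called in A/J, all higher, where 7.26% of all genes were called in either direction. Of 8 collagens tested in BALB/cJ, 6 were called higher, where 4.78% of all genes were, and all 6 reached 8 TPM only in the AMLN group. Without the limit 19 of 31 were called in BALB/cJ, 18 higher and 1 lower, where 8.94% of all genes were. In C57BL/6J a single collagen, Col11a2, passed the 8 TPM limit and it was not called (-0.62, unadjusted p 0.14 in edgeR's test, and not called by DESeq2), where 12.1% of all genes were called in either direction. The study's methods include a control diet, but the labels of these control libraries give no diet, age or feeding time, so diet, age and batch cannot be told apart from the labels.

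In A/J, both calls were collagen IV. Col4a1 had 2.57, 17.7, 9.97 and 20.1 TPM in AMLN Kupffer cells, against 0.91 and 0.82 TPM in control Kupffer cells, a log2 difference of 3.95 (SE 0.93, adjusted p 0.022 in edgeR's test). Col4a2 had 1.68, 12.3, 7.09 and 11.3 TPM in AMLN cells, against 0.71 and 0.78 TPM in controls (3.54, adjusted p 0.036). No library overlapped, but both calls were lost without either control library, with adjusted p from 0.146 to 0.315.

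In BALB/cJ, collagen IV was joined by collagens of stellate cells and LSECs. Col4a1 had 24.0, 13.2 and 104 TPM in AMLN cells, against 0.49 and 0.75 TPM in controls (log2 difference 6.12), and Col3a1 had 5.69, 3.27 and 43.7 TPM against 0.11 and 0.25 TPM (6.47). Col13a1 had 6.97, 6.52 and 31.8 TPM in AMLN cells, against 0.03 and 0.24 TPM in controls (6.68). AMLN replicate 3 was the highest library in each. Col4a2 (5.74), Col1a2 (4.78) and Col14a1 (4.01) completed the 6. Each of the 6 calls was lost without control replicate 1 (adjusted p 0.0611 to 0.263 in edgeR's test), those of Col1a2, Col3a1, Col4a2 and Col14a1 also without control replicate 2 (0.054 to 0.164), and that of Col14a1 without AMLN replicate 3 (0.0652).

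**Figure D5:**
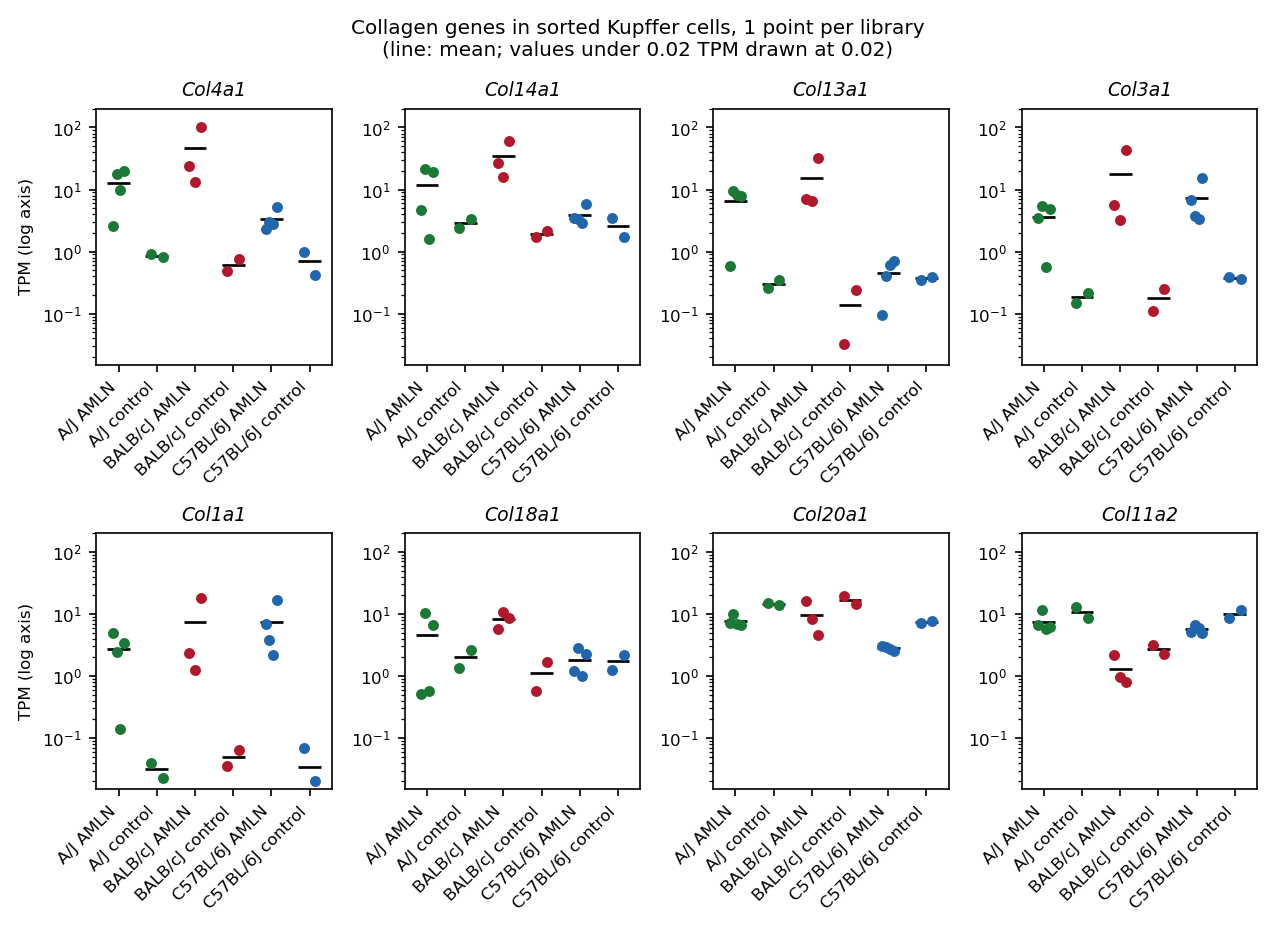
TPM of 8 collagen genes (log y axis, values under 0.02 TPM drawn at 0.02) in sorted Kupffer cells, with strains from left to right A/J, then BALB/cJ, then C57BL/6J, and with AMLN left of control in each strain, 1 point per library and a line at the mean. Col4a1 and Col13a1 lie highest in BALB/cJ AMLN cells, Col1a1 is near 0 in every control library, and Col20a1 is lower in AMLN than in control cells of C57BL/6J.

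Markers of LSECs and stellate cells moved with the AMLN groups of A/J and BALB/cJ. LSEC markers summed to 998, 2304, 1699 and 1949 TPM in A/J AMLN cells against 801 and 871 TPM in controls, and to 2025, 1535 and 5259 TPM in BALB/cJ AMLN cells against 614 and 630 TPM in controls. Of the LSEC markers tested, 9 of 14 were called higher in A/J and 11 of 15 in BALB/cJ. Stellate markers summed to 160, 691, 105 and 556 TPM in A/J AMLN cells against 191 and 217 TPM in controls, and to 1046, 505 and 1176 TPM in BALB/cJ AMLN cells against 384 and 315 TPM in controls, with 0 of 9 and 8 of 12 called. None of the stellate or LSEC markers was at 0 in all libraries of a Kupffer group. Their part in the collagen calls of these strains was not tested.

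In C57BL/6J the same marker sums did not stand above the controls, and the collagens that differed lay under the 8 TPM limit. Stellate markers summed to 141, 197, 161 and 199 TPM in AMLN cells against 265 and 232 TPM in controls, and LSEC markers to 507, 733, 589 and 608 TPM against 847 and 771 TPM. Under the 8 TPM limit, and named after their values were seen, Col1a1 had 7.00, 3.87, 2.20 and 16.8 TPM in AMLN cells against 0.07 and 0 TPM in controls, and Col3a1 had 6.76, 3.77, 3.36 and 15.3 TPM against 0.39 and 0.36 TPM. Neither overlapped with its controls. Without the limit the log2 differences were 4.47 for Col3a1, 3.90 for Col1a2 and 3.98 for Col15a1, a multiplexin of vascular basement membranes, and 11 of 31 collagens were called, 9 higher and 2 lower, where 13.6% of all genes were called. The collagen IV genes summed to 4.53, 5.25, 4.67 and 9.89 TPM in C57BL/6J AMLN cells against 1.66 and 0.66 TPM in controls.

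Summed markers of portal fibroblasts and of cholangiocytes were higher in the AMLN groups of every strain. Portal fibroblast markers, 10 genes such as Thy1 and Dpt, summed to 18.6, 17.0, 12.2 and 10.1 TPM in A/J AMLN cells against 2.35 and 2.58 TPM in controls, to 16.8, 16.6 and 37.0 TPM in BALB/cJ AMLN cells against 2.78 and 1.74 TPM, and to 25, 11.9, 28 and 28.6 TPM in C57BL/6J AMLN cells against 2.95 and 5.08 TPM. Cholangiocyte markers, 6 genes, summed to 34.4, 8.72, 23.4 and 33.4 TPM in A/J AMLN cells against 3.81 and 3.11 TPM in controls, to 10.1, 7.70 and 92.8 TPM in BALB/cJ AMLN cells against 1.31 and 2.79 TPM, and to 208.8, 94.6, 85.7 and 240.1 TPM in C57BL/6J AMLN cells against 3.69 and 1.82 TPM. The AMLN libraries of each strain lay above its controls in both sums. Neither sum is particular to the cell type it is named for. PBS-treated BMDMs held 1709 to 4799 TPM of the cholangiocyte markers and 3.62 to 21.8 TPM of the portal fibroblast markers. Of the 6 cholangiocyte markers, 1 passed 8 TPM in at least 1 group. The part of these markers in the collagen differences was not tested.

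The AMLN libraries differed in the ratio of the collagen I chains. Col1a1 to Col1a2 was 1.561, 1.906, 1.468 and 1.699 in C57BL/6J AMLN Kupffer cells, 0.364, 0.637 and 0.975 in BALB/cJ AMLN cells, and 0.962, 0.393 and 0.742 in the 3 A/J AMLN libraries with at least 10 reads of each chain. C57BL/6J lay above the other strains without overlap, and above every stellate library, whose highest ratio was 0.342. In PBS-treated BMDMs the ratio was 0.978 and 1.393 in A/J libraries, 1.338 and 1.821 in BALB/cJ libraries, and 2.077 and 1.845 in those of C57BL/6J. These ratios are given as a description.

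Whether the diet difference depended on strain was tested over the Kupffer libraries, and none of 9 collagens was called in edgeR's test, where 3.7% of all genes were. At an unadjusted p under 0.05, 3 of the 9 passed, with Col13a1 at an adjusted p of 0.103, and DESeq2 called 2. Without the TPM limit 2 collagens were called, where 2.74% of all genes were: Col15a1, whose largest difference between strains was -3.97 (adjusted p 0.0207), and Col27a1 (3.26, adjusted p 0.0326). The collagen differences of the 3 strains on AMLN diet are therefore not shown to differ from each other for the genes above 8 TPM.

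Genes that degrade or process collagen were among those higher on AMLN diet. Mmp14, a membrane-bound collagenase, was called higher in all 3 strains, by 2.34 for A/J, 2.66 for BALB/cJ and 2.85 for C57BL/6J on the log2 scale. Mmp13, the main interstitial collagenase of mice, was called in C57BL/6J, at 90.7 TPM in AMLN cells and 2.14 TPM in controls (5.61), and its diet difference varied between strains (largest difference -8.05, adjusted p 0.015 in edgeR's test). Serpinh1 (5.61) and Pcolce (2.82), which assist procollagen folding and cleavage, were called higher in BALB/cJ. The basement membrane gene Nid2 was called lower in A/J (-2.49) and C57BL/6J (-2.42), against the direction of Col4a1 and Col4a2 in A/J.

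Control Kupffer cells expressed few collagens, and 1 call was made between strains. Col11a2 had 3.12 and 2.27 TPM in BALB/cJ and 8.55 and 11.4 TPM in C57BL/6J control cells, a log2 difference of -1.84 (SE 0.49, adjusted p 0.042 in edgeR's test), and 12.8 and 8.48 TPM in A/J. The call was 1 of 2 collagens tested, where 3.65% of all genes were called, and it was lost without any of the 4 libraries. Col20a1 had 14.8 and 14.0 TPM in A/J, 19.3 and 14.2 TPM in BALB/cJ, and 7.07 and 7.62 TPM in C57BL/6J, and C57BL/6J lay lowest without overlap, but no pair was called (BALB/cJ minus C57BL/6J 1.24, adjusted p 0.12). None of the collagens tested was called between A/J and BALB/cJ (2 tested, 1.64% of all genes called) or between A/J and C57BL/6J (2 tested, 3.09%) in edgeR's test. An unadjusted p under 0.05 was reached by 1 collagen in each of these pairs, and DESeq2 called 1 between A/J and BALB/cJ. Without the limit 31 collagens were tested. For A/J minus BALB/cJ 0 were called, where 241 of 14294 genes were. For A/J minus C57BL/6J 1 was called, higher in A/J, where 414 of 14294 genes were. For BALB/cJ minus C57BL/6J 2 were called, both lower in BALB/cJ, where 538 of 14294 genes were.

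Hepatocytes expressed Col18a1 alone at a high level, with 265 and 255 TPM in A/J, 252 and 243 TPM in BALB/cJ, and 245, 227 and 258 TPM in C57BL/6J, so that A/J lay just above BALB/cJ and C57BL/6J overlapped with both. No collagen over 8 TPM was called between strains in hepatocytes, with 2, 1 and 2 tested and 5.48%, 3.67% and 9.25% of all genes called. None of these passed edgeR's test at an unadjusted p under 0.05 (0 in each pair), and DESeq2 called 0. Without the limit 8 of 24 collagens were called for A/J minus BALB/cJ, 7 lower and 1 higher in A/J, where 6.24% of all genes were. For A/J minus C57BL/6J 3 were called, 2 higher and 1 lower, where 449 of 12202 genes were. For BALB/cJ minus C57BL/6J 4 were called, 2 higher and 2 lower, where 10.3% of all genes were. Below the limit, and named after its values were seen, Col5a3 had 5.35 and 5.83 TPM in A/J, 1.53 and 1.67 TPM in BALB/cJ, and 8.21, 5.52 and 5.99 TPM in C57BL/6J. BALB/cJ was lowest without overlap (1.91 for A/J minus BALB/cJ and -2.16 for BALB/cJ minus C57BL/6J, tested with no TPM limit, where 6.24% and 10.3% of all genes were called). In stellate cells, BALB/cJ held the highest mean of Col5a3 and C57BL/6J the lowest.

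BMDMs, macrophages grown from marrow in culture, expressed yet another set. Col4a5, a collagen IV chain on the X chromosome, had 2.02 and 1.78 TPM in A/J, 8.92 and 7.69 TPM in BALB/cJ, and 3.98 and 4.14 TPM in C57BL/6J PBS-treated cells. BALB/cJ was highest without overlap and was called, being over 8 TPM there alone, against A/J (A/J minus BALB/cJ -2.18, SE 0.11, where 4.23% of all genes were called) and against C57BL/6J (1.00, SE 0.10, where 4.66% were called). The last of these sat at the fold limit and fell to 0.98 without C57BL/6J replicate 1. Without the TPM limit 29 collagens were tested between strains after PBS. For A/J minus BALB/cJ 7 were called, 1 higher and 6 lower, where 1240 of 13511 genes were. For A/J minus C57BL/6J 10 were called, 4 higher and 6 lower, where 1462 of 13511 genes were. For BALB/cJ minus C57BL/6J 12 were called, 8 higher and 4 lower, where 1256 of 13511 genes were. Col4a5 was at most 0.254 TPM in LSECs of A/J and BALB/cJ and reached 2.79 and 1.18 TPM in replicates 3 and 4 of C57BL/6J LSECs, and Col4a1 and Col4a2, its collagen IV relatives, were under 1 TPM on average in PBS-treated BMDMs of every strain.

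KLA raised Col18a1 in C57BL/6J BMDMs, to 13.6 and 15.2 TPM, against 7.68 and 6.01 TPM after PBS, a log2 difference of 1.37 (SE 0.15), where 17.1% of all genes were called. It was the 1 collagen tested there, and it reached 8 TPM only after KLA, so that it had to differ to be tested. Without the TPM limit it was also called in A/J, at 5.41 and 6.45 TPM after KLA and 4.06 and 3.02 TPM after PBS (1.10), and in BALB/cJ, at 5.60 and 7.09 TPM after KLA and 2.76 and 2.34 TPM after PBS (1.62), where 16.2% and 18.5% of all genes were called. The treated and PBS libraries did not overlap in any strain.

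Col27a1 was near 0 after PBS and was higher after KLA in each strain, and it is named after its values were seen, since it stayed under the limit. It had 0.525 and 0.480 TPM after KLA and 0.17 and 0.06 TPM after PBS in A/J, 2.26 and 2.03 TPM after KLA and 0.15 and 0.11 TPM after PBS in BALB/cJ, and 2.91 and 2.97 TPM after KLA and 0.03 and 0.04 TPM after PBS in C57BL/6J. The log2 differences were 2.60 for A/J, 4.28 for BALB/cJ and 6.55 for C57BL/6J, each called without the limit, where 21.6% of all genes were called in C57BL/6J. The 1 collagen above the limit in BALB/cJ, Col4a5, was short of the fold limit (0.46, adjusted p 0.000666 in edgeR's test, where 14.1% of all genes were called). The collagenase genes Mmp13 (4.95 for A/J, 5.09 for BALB/cJ, 5.50 for C57BL/6J) and Mmp14 (3.94 for A/J, 3.82 for BALB/cJ, 2.54 for C57BL/6J) were called higher after KLA in all 3 strains.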

How the data were processed

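RNA-seq libraries held poly(A) RNA, with the strand marked by dUTP. The authors mapped reads with STAR to strain genomes shifted to mm10 positions and counted them over exons with HOMER, whose versions are not given in the sources used here. The deposited tables hold raw counts per gene for sorted cells and hepatocytes, expected counts in steps of 0.5 for BMDMs (84421 values ending in 0.5 were rounded up), and TPM of the isoform with the most reads, as computed by the authors. The TPM columns sum to under 1 M, so levels are relative to the genes listed. Of 20 tables, 2 were read, and 4 libraries of mice given lipopolysaccharide, 6 of NSG recipients and 16 of hybrid mice were not used here. 

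Counts were tested with edgeR 4.0.16 in R 4.3.3 (TMM normalization, robust quasi-likelihood fit) in 1 fit per cell type over its groups, after filterByExpr and with a mean above 8 TPM in a group of the comparison, following the limits of the study's methods. Standard errors are the log2 fold change over the square root of F. DESeq2 1.42.0, its size factors in edgeR, a fit without the TPM limit, fits of the groups compared alone, a replicate block, scaling to stellate markers and leaving out each library were alternatives. Ratios of chains were tested by exact permutation. Named genes were all collagens called, and up to 4 called genes per further list by size of change. The members and lists were chosen with earlier results of these data known. Tests on simulated counts called 83.6 to 100% of genes changed 3-fold and 95.5 to 100% of those changed 8-fold. They covered the first comparison of each fit, so no diet or KLA comparison, and recovery of changes at the fold limit was not recorded. All 44 genes had a RefSeq position on GRCm38.p6 and 35 a promoter window. No pair of replicates agreed within sampling noise.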

Additional observations from a re-analysis of the deposited data

Results flagged for a closer look

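In groups of 4 libraries, a single library stood far from the others in 6 of 52 combinations of collagen and group. Chance alone gives about 1 in 20 for independent tests. Several of the 6 share a library, so the combinations are not independent and no excess over chance is read from them. In LSECs of BALB/cJ mice, replicate 1 had 40.7 TPM of Col18a1 and 70.4 TPM of Col14a1, and in LSECs of A/J mice replicate 3 had 500.6 TPM of Col13a1. In stellate cells of BALB/cJ mice, replicate 4 stood apart in Col6a5 (32.4 TPM), Col3a1 (321.3 TPM) and Col1a2 (394.0 TPM).

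The effect of strain differed between stellate cells and LSECs for Col5a2, with a value of A/J minus C57BL/6J in stellate cells minus that in LSECs of 1.57 on the log2 scale, and for Col27a1, with one of A/J minus BALB/cJ of -1.03, both by an interaction term in edgeR.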

How the results depend on the processing

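Among collagens, edgeR called 50 differences between stellate cells and other cells, 8 between LSECs and Kupffer cells, 15 between strains in stellate cells, 0 in LSECs, 0 in hepatocytes and 1 in control Kupffer cells, 8 on AMLN diet, 0 in diet by strain, 2 between strains in BMDMs, 1 after KLA and 2 in strain by cell type. Without the TPM limit these counts were 83, 30, 27, 13, 15, 3, 39, 2, 29, 14 and 3. They are given above by comparison, beside the number or share of all genes called. DESeq2 called 2 in LSECs, 2 in control Kupffer cells and 2 in diet by strain, and was within 1.5 times elsewhere. Scaling to stellate markers left 7 calls between strains in stellate cells. Fits of the compared groups alone gave 3 calls in control Kupffer cells, and LSECs without the 3 libraries high in Alb gave 1. Leaving out single libraries gave 47 to 50, 8 to 8, 12 to 20, 0 to 0, 0 to 0, 0 to 1, 2 to 10, 0 to 1, 0 to 2, 1 to 1 and 1 to 4 calls in the same order. The cause of these shifts was not tested, apart from the genes that the limit removes. Calls on AMLN diet moved by over 1.5 times without BALB/cJ control replicate 1 or 2 or BALB/cJ AMLN replicate 3, those in BMDMs without BALB/cJ or C57BL/6J PBS replicate 1, and those of strain by cell type without BALB/cJ LSEC replicate 1, A/J or C57BL/6J stellate replicate 3 or BALB/cJ stellate replicate 1.

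The 85 calls outside strain by cell type were all kept with DESeq2 and with its size factors in edgeR, and none changed sign. Same-numbered replicates correlated from -0.521 to 0.653 in their deviations, so numbers were not taken as pairs (in stellate cells, a library correlated best with its own number in 8 of 20 comparisons with another strain). In hepatocytes this held in 9 of 12 comparisons. There a replicate block raised the calls over all genes from 311 to 349 (A/J minus BALB/cJ), 202 to 347 (A/J minus C57BL/6J) and 530 to 674 (BALB/cJ minus C57BL/6J), with no collagen called. With a replicate block 78 of the 85 calls were kept, and counts became 2 in LSECs, 1 in diet by strain and 1 between strains in BMDMs, and were 49 in stellate against other cells, 13 in stellate strains and 6 on AMLN diet.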

Other observations

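In Kupffer cells of A/J and BALB/cJ mice on AMLN diet, fibronectin and several basement membrane genes were called higher, as collagen IV was, while Nid2 was called lower in A/J (-2.49). In A/J, Hspg2 (4.79), Nid1 (4.20), Fn1 (3.31) and Sparc (3.07) were called higher on the log2 scale. In BALB/cJ 9 of 12 matrix genes outside the collagens were called higher, led by Lama4 (7.19), a laminin chain, and Nid1 (6.38). Of all genes tested, 2.66% were called higher in A/J and 4.78% in BALB/cJ. A gene over 8 TPM in AMLN cells alone had to differ to be tested. In C57BL/6J, Fn1 (2.70) was the 1 matrix gene outside the collagens called higher of 5 tested, and Nid2 was called lower (-2.42). There, 12.1% of all genes were called in either direction. LSEC markers moved with these groups in A/J and BALB/cJ, as given above, and their part was not tested.

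The ratio of Col4a1 to Col4a2 was 1.36 to 1.66 in LSEC libraries and 1.56 to 1.84 in stellate libraries, and lay between 0.584 and 1.147 in hepatocyte libraries, where both genes were at 2.13 to 5.31 TPM.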
